A study of Mus musculus with 2 samples.

Results

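Iron handling was followed here through 7 genes, chosen by name because each encodes a known step of the iron cycle of macrophages: Tfrc, Slc11a1, Hmox1, Fth1, Ftl1, Ncoa4 and Slc40a1. They were 7 of the 32285 genes counted, and all 7 were found in both libraries. A longer list of 44 iron and haem genes, which holds the 7, gave the rest of the pathway. The cells were live CD45+ leukocytes sorted from adrenal glands of wild-type C57Bl/6 mice 7 weeks old, for which no treatment is named, with 1 droplet library from females and 1 from males. The number of animals behind a library is not given in the sources used here, and with 1 library per sex there was no replicate error, so no test was run: every difference between the sexes is a difference between these libraries, and sex and library cannot be told apart.

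Macrophages take up iron bound to transferrin through the transferrin receptor (Tfrc), and haem iron by engulfing dying red cells. Haem oxygenase 1 (Hmox1) frees iron from haem, Slc11a1 (NRAMP1) moves iron out of phagosomes, ferritin (heavy chain Fth1, light chain Ftl1) stores it, Ncoa4 delivers ferritin to lysosomes for release, and ferroportin (Slc40a1) is the only known exporter of iron from the cell. Part of this set is controlled after transcription: iron regulatory proteins bind a hairpin, the iron-responsive element, and block translation from a 5′ UTR or stabilise the transcript from a 3′ UTR, so that an mRNA level need not follow the protein level.

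The hairpins are shown because they divide the 7 genes into those with and without this control. The search used 1 transcript per protein-coding gene of the GRCm38 annotation (GENCODE M21), read on the sense strand, for a C, 5 bases, CAGTGN with N being any base but G, and 5 bases able to pair with the first 5, G-T pairs included. The pattern was in the 5′ UTR of 18 of 21866 genes (0.0823%), among them Fth1, Ftl1 and Slc40a1, and in the 3′ UTR of 78 genes (0.357%), among them Tfrc with 4 copies. In the lines that follow, each is written 5′ to 3′ on the strand of the gene, with the loop in capitals.
Fth1, 5′ UTR, chr19:9982732-9982760, plus strand: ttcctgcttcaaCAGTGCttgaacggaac
Ftl1, 5′ UTR, chr7:45459779-45459807, minus strand: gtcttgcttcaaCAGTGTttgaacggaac
Slc40a1, 5′ UTR, chr1:45925465-45925493, minus strand: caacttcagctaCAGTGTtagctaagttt
Tfrc, 3′ UTR, chr16:32631219-32631247, plus strand: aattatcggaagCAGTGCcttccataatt
Tfrc, 3′ UTR, chr16:32631598-32631626, plus strand: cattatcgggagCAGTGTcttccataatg
Tfrc, 3′ UTR, chr16:32631663-32631691, plus strand: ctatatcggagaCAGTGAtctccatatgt
Tfrc, 3′ UTR, chr16:32631710-32631738, plus strand: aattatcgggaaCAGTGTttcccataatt
These letters were not found in the transcripts searched for Hmox1 (ENSMUSG00000005413, chr8:75093621-75100589, plus strand), Slc11a1 (ENSMUSG00000026177, chr1:74375195-74386062, plus strand) and Ncoa4 (ENSMUSG00000056234, chr14:32159865-32179855, plus strand). The genes that hold them are Fth1 (ENSMUSG00000024661, chr19:9980598-9985098), Ftl1 (ENSMUSG00000050708, chr7:45457944-45459884), Slc40a1 (ENSMUSG00000025993, chr1:45908068-45926523) and Tfrc (ENSMUSG00000022797, chr16:32608920-32632794). Translation was not measured, so the results below concern transcript levels alone.

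After filtering, 3694 female and 2449 male cells were analysed, with medians of 3490 and 3008 unique molecular identifiers (UMIs, each standing for 1 captured transcript) per cell. The female library held 16218309 UMIs over 3963 barcodes and the male library 9512670 over 2685, and 2 barcodes occurred in both. Clustering gave 21 clusters, of which 18 were named by marker genes, with the iron genes kept out of the features used to cluster. The names were rebuilt here and may differ from those of the study. The macrophage-like cells, 818 female and 797 male, fell into 5 subsets called by a leading gene: Mmp12 (153 and 103 cells), Tmem119 (261 and 204), Cxcl14 (219 and 223), Lyve1-high (99 and 169) and Aldh1a2-high (86 and 98). All 10 genes of the macrophage marker list (C1qa, Adgre1, Csf1r and others) were detected in each subset, and their summed level ran from 13914 to 22530 CPM (UMIs scaled to the same total in every class) in the first 4 but was 2268 and 2433 CPM in Aldh1a2-high cells, close to the 2145 and 2312 CPM of monocyte-like cells, so that the name macrophage rests on fewer transcripts there. The same list summed to 146 CPM in female and 179 CPM in male lymphocyte-like cells.

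Each level is the UMIs of a gene summed over a class and divided by all UMIs of that class, in CPM, with a 95% Poisson interval. To give the share of cells in which a gene was detected at like depth, every cell with at least 1000 UMIs was thinned to 1000, with exact binomial intervals. Shallower cells were left out of the thinned shares, among them 21 of 99 female and 34 of 169 male Lyve1-high cells. In most places the unthinned share, over all cells of the class, stands beside the thinned one. Intervals cover counting error only. A ratio was called where it passed 1.5-fold, provided that a library held 50 UMIs of the gene or more (in each library, both classes together, where classes were compared).

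Against lymphocyte-like cells, 2071 female and 1011 male cells taken as the background, macrophage-like cells had more transcripts of 6 of the 7 iron genes in both libraries. In the same comparison 41.4% of all genes tested passed 1.5-fold the same way in both libraries, so the count by itself does not set the iron genes apart. The sizes were large: Slc11a1 was 76.0-fold higher in the female and 92.3-fold higher in the male library, Slc40a1 43.2-fold and 94.7-fold, and Hmox1 42.7-fold and 35.4-fold. The ferritin chains, which every cell makes, were 5.90-fold and 5.36-fold higher (Fth1) and 9.18-fold and 8.85-fold higher (Ftl1). Ncoa4 was 1.80-fold and 1.89-fold higher. Tfrc alone was not called, at 0.703-fold in the female and 1.76-fold in the male library. Of the 44 pathway genes, 36 had enough UMIs, of which 20 were higher in macrophage-like cells, while Alad of haem synthesis was lower.

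**Figure D1:**
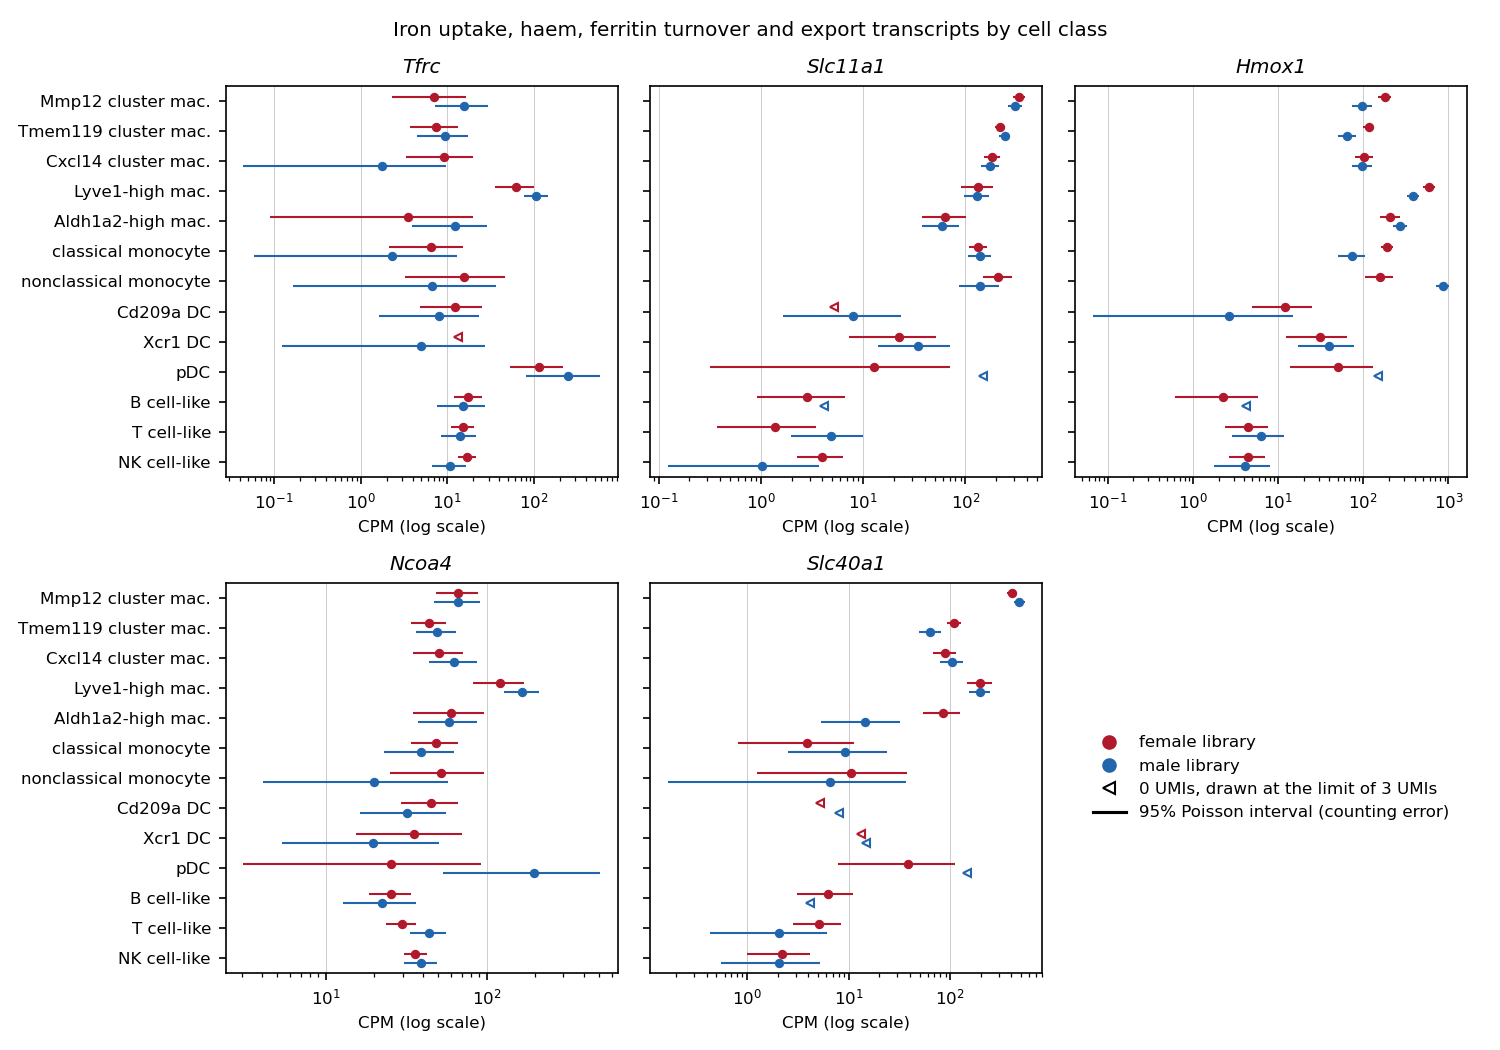
Level in CPM (log axis) of Tfrc, Slc11a1, Hmox1, Ncoa4 and Slc40a1 in 13 cell classes of the female (red) and male (blue) library. Points are summed levels, bars 95% Poisson intervals, and open triangles classes with 0 UMIs drawn at the 3-UMI limit. Slc40a1 reached 407 and 480 CPM in the Mmp12 subset and had 0 UMIs in the Cd209a and Xcr1 dendritic cell-like cells.

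Among macrophages, the receptor for transferrin iron was highest in the Lyve1-high subset. Tfrc stood at 62.0 CPM in female and 107 CPM in male Lyve1-high cells (16 and 42 UMIs), and between 1.75 and 15.7 CPM in the other 4 subsets of both libraries. The ratio of Lyve1-high cells to the other macrophages was 8.42 (95% interval 4.16 to 16.6) in the female and 11.2 (6.64 to 19.1) in the male library. Both intervals lie above 1, although the female count was too low for the gene to enter the list of calls. The 5 highest cells held 37.5% and 28.6% of these UMIs. After thinning, 3.85% (0.80 to 10.8) and 7.41% (3.61 to 13.2) of Lyve1-high cells had a Tfrc UMI, against 0.480% and 0% (upper limit 0.699%) of the Mmp12, Tmem119 and Cxcl14 cells pooled. Unthinned shares were 15.2% and 17.8% in Lyve1-high cells.

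Outside macrophages, Tfrc was low in most classes. It was 16.4 CPM in female and 12.7 CPM in male lymphocyte-like cells, at 8.34 and 3.42 CPM among monocyte-like cells, and at 8.73 and 6.90 CPM among dendritic cell-like cells. Plasmacytoid dendritic cell-like cells had the highest values, 114 and 246 CPM, which rest on 9 UMIs in 21 cells and 5 UMIs in 8 cells. Their intervals, 52.3 to 217 and 79.9 to 575 CPM, overlap those of the Lyve1-high cells in both libraries. In a small cluster led by genes of dividing cells, left unnamed, 21.4% of 28 female and 18.2% of 11 male cells had a Tfrc UMI before thinning and none after it, at median depths of 13826.5 and 10273 UMIs per cell.

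The phagosomal transporter Slc11a1 followed another order. Among macrophages it was highest in the Mmp12 subset, at 334 CPM in the female and 306 CPM in the male library, and then 220 and 244 CPM in Tmem119, 182 and 175 CPM in Cxcl14, 132 and 129 CPM in Lyve1-high and 63.6 and 58.6 CPM in Aldh1a2-high cells. The libraries gave the same order of the 5 subsets, but the intervals of each pair of neighbours overlapped in at least 1 library. Monocyte-like cells had 148 and 139 CPM, within 1.5-fold of macrophage-like cells (ratio 1.46 in both libraries). Dendritic cell-like cells had 6.23 and 17.3 CPM (5 and 10 UMIs), and lymphocyte-like cells 2.85 and 2.19 CPM. Neutrophil-like cells had 109 and 101 CPM (9 UMIs in each library), with intervals that overlapped those of the Aldh1a2-high subset in both libraries. A Slc11a1 UMI was found after thinning in 20.9% and 16.1% of macrophage-like cells (47.8% and 39.9% unthinned) and in 0.344% and 0.203% of lymphocyte-like cells.

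Among the other uptake genes, the haemoglobin scavenger receptor Cd163 was 469 and 675 CPM in Lyve1-high cells, where it stands on the marker list of that subset but was not used to name the cluster, and 70.4 and 103 CPM over all macrophage-like cells. Lrp1, which takes up haem bound to haemopexin among many ligands, was 226 and 188 CPM in macrophage-like cells and 2.85 and 2.68 CPM in lymphocyte-like cells. Among macrophage subsets, Slc48a1, which carries haem out of the phagolysosome, was highest in Aldh1a2-high cells, at 131 and 178 CPM, against 51.2 and 66.4 CPM in macrophage-like cells as a whole.

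Among macrophages, Hmox1, which opens haem breakdown, was highest in Lyve1-high cells. It was 589 CPM (499 to 691) in the female and 383 CPM (325 to 449) in the male library there, 4.34-fold (3.58 to 5.24) and 3.45-fold (2.81 to 4.21) above the other macrophages. The next subset was Aldh1a2-high, at 208 and 268 CPM. The Mmp12 subset had 180 and 97.8 CPM, Cxcl14 102 and 97.9 CPM and Tmem119 115 and 64.9 CPM, an order that was not the same in the libraries. The share of cells with a UMI showed a like contrast with the Mmp12, Tmem119 and Cxcl14 subsets, without depending on cells of very high count. After thinning, 28.2% (18.6 to 39.5) of 78 female and 28.1% (20.8 to 36.5) of 135 male Lyve1-high cells had a Hmox1 UMI. In those other subsets pooled the shares were 8.0% and 7.60%. Unthinned and over all cells, the shares were 46.5% and 42.6% against 24.6% and 21.9%. Aldh1a2-high cells were closer to Lyve1-high cells, with a UMI after thinning in 15 of 76 female and 19 of 91 male cells. In lymphocyte-like cells the gene was at 3.99 and 4.14 CPM and in 0.443% and 0.102% of thinned cells (1.5% and 1.58% unthinned, median depth 3707 and 3808 UMIs).

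Lyve1-high cells differed from the other subsets in depth and in stray transcripts too. Their median depth was 1749 and 1877 UMIs against 2388 and 1978 in the Cxcl14 subset, 2815 and 2992 in Aldh1a2-high cells and 4343 to 5301 in the Mmp12 and Tmem119 subsets, so that in the male library they were close to the Cxcl14 subset. Their median mitochondrial share was 5.47% and 5.82% against 1.36% to 3.11% in the other 4 subsets. The 9 marker genes of adrenal cortical and medullary cells summed to 423 and 325 CPM in them, against 58.6 to 226 CPM in the other 4 subsets, and the 6 erythroid markers to 23.3 and 25.4 CPM against 6.10 to 10.6 CPM, with Alas2 at 0 in every subset. Their part in the Hmox1, Tfrc and Ncoa4 levels was not tested.

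Summed over cells, Hmox1 in monocytes was not below that in macrophages. Monocyte-like cells had 183 CPM in the female and 279 CPM in the male library, and the ratio of macrophage-like to monocyte-like cells was 0.933 and 0.526, so that Hmox1 was not called in this comparison. Both levels rest on few cells. In the male library 131 of the 163 UMIs came from nonclassical cells, of which 5 held 88.5%. In the female library 145 of the 175 UMIs came from classical cells, of which 5 held 66.2%. Dendritic cell-like cells (the Cd209a and Xcr1 clusters) were far lower than macrophage-like cells, at 17.5 and 15.5 CPM (ratios 0.102 and 0.106).

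Of the enzymes that act with Hmox1, biliverdin reductase B (Blvrb) was, among macrophage subsets, highest in the Mmp12 subset, at 370 and 454 CPM, and was 291 and 401 CPM in Lyve1-high and 49.5 and 63.4 CPM in Aldh1a2-high cells. The constitutive haem oxygenase Hmox2 was 128 and 145 CPM in Lyve1-high cells and 82.5 and 88.0 CPM over macrophage-like cells. Blvra lay between 57.4 and 106 CPM in the 5 subsets. All 4 genes of haem breakdown were higher in macrophage-like than in lymphocyte-like cells, where 41.4% of all genes passed in one direction or the other.

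A few cells carried much of the Hmox1 signal. Cells with 10 or more Hmox1 UMIs numbered 9 in the female and 7 in the male library, and held 263 of 826 (31.8%) and 171 of 654 (26.1%) of the Hmox1 UMIs of the library. The female cells were 2 Lyve1-high, 2 Mmp12, 2 Tmem119, 1 Cxcl14 and 2 classical monocyte-like cells, and the male cells 3 nonclassical monocyte-like, 2 Aldh1a2-high, 1 Lyve1-high and 1 Mmp12 cell. One female Lyve1-high cell alone held 56 of the 152 Hmox1 UMIs of its class. These cells were chosen on Hmox1 after the values were seen, so what else they contained is a description, and so is the choice of genes.

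In those cells, Gclm, a subunit of the enzyme that begins glutathione synthesis, was at 657 CPM in the female and 416 CPM in the male library, against 34.1 and 37.9 CPM in the other cells of the same classes, and Srxn1 (sulfiredoxin) was at 123 and 375 CPM against 14.2 and 17.3 CPM. Slc7a11, the cystine importer, was at 164 CPM against 4.19 CPM in the female library (8 UMIs in 3 cells) and had 1 UMI in the male cells. Levels of Txnrd1 (thioredoxin reductase) were 41.0 and 291 CPM against 48.7 and 58.5 CPM, so that Txnrd1 was not higher in the female cells. The 4 genes are known targets of the oxidative stress factor NRF2, as is Hmox1. The male Gclm UMIs came from 1 cell and the female ones from 5 of 9 cells. Slc40a1 did not go one way: it was 1088 CPM against 133 CPM in the female cells and 167 CPM against 236 CPM in the male cells. Fth1 was 3.77-fold and 1.65-fold and Ftl1 3.01-fold and 1.31-fold the level of the other cells. The other cells were not matched to the high cells in class makeup. The macrophage gene C1qa was 4247 CPM against 4450 CPM in the female cells and 416 CPM against 3722 CPM in the male cells. The part of class makeup in these contrasts was not tested.

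**Figure D2:**
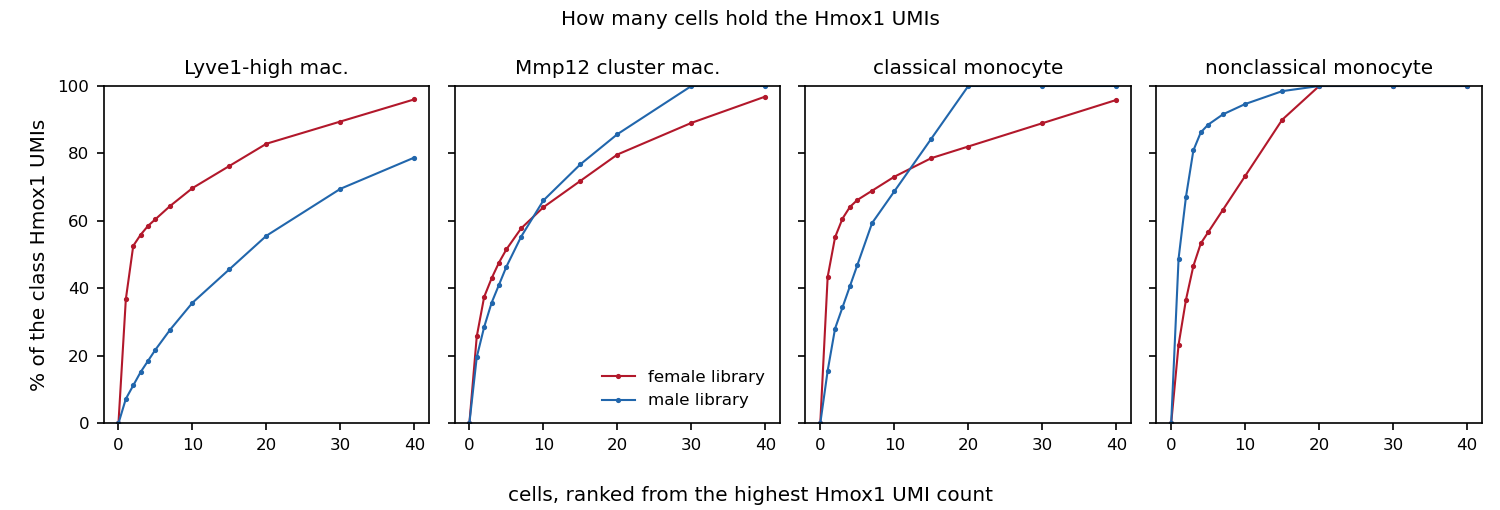
Cumulative share (%) of the Hmox1 UMIs of a class held by its cells, ranked from the highest, in 4 classes of the female and male library. The curve of the male nonclassical monocyte-like cells reaches 88.5% of the UMIs with 5 cells, and that of the male Lyve1-high cells 21.9%.

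Iron storage was the most abundant part of the set. In the Mmp12 subset, Fth1 stood at 13618 CPM (13348 to 13892) in the female and 12528 CPM (12240 to 12821) in the male library, and Ftl1 at 10086 and 9237 CPM. The Cxcl14 subset was as rich, with 14055 and 13142 CPM of Fth1 and 9735 and 9321 CPM of Ftl1. Together the 2 chains made up 2.37% and 2.18% of all UMIs of the Mmp12 subset and 2.38% and 2.25% of the Cxcl14 subset, against 0.242% and 0.240% in lymphocyte-like cells. Fth1 and Ftl1 were among the leading genes of the Cxcl14 cluster although they were not used to build it.

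The remaining subsets were lower. Tmem119 cells had 7936 and 8174 CPM of Fth1, Lyve1-high cells 4900 and 4799 CPM, and Aldh1a2-high cells 3730 and 3182 CPM, the last near the classical monocyte-like cells with 4052 and 3225 CPM. For Ftl1 the same 3 subsets had 5454 and 5609, 5428 and 5195, and 3518 and 3377 CPM. Lyve1-high cells were thus below Tmem119 cells in the heavy chain in both libraries but level with them in the light chain in the female library, where the intervals overlapped. Outside macrophages, plasmacytoid dendritic cell-like cells were highest in Fth1, at 6732 and 7632 CPM, and the T cell-like cluster led by Lef1 lowest, at 1088 and 1011 CPM.

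The balance of the chains differed between classes. Since the counts are 3′ tags, 1 per transcript whatever its length, the chains can be set against each other. Macrophages of the Mmp12, Tmem119 and Cxcl14 subsets had 1.35 to 1.46 Fth1 UMIs per Ftl1 UMI in both libraries. Lyve1-high cells had fewer heavy than light chain UMIs, 0.903 (0.836 to 0.975) in the female and 0.924 (0.867 to 0.984) in the male library, as did nonclassical monocyte-like cells with 0.826 and 0.785. In Aldh1a2-high cells the ratio was 1.06 and 0.942, with both intervals including 1.

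Lymphocyte-like cells had 2.13 and 2.19 heavy chain UMIs per light chain UMI, and the B cell-like cluster led by Ighd reached 3.06 and 3.04. Plasmacytoid dendritic cell-like cells were close to it with 3.01 and 3.23, while the Cd209a dendritic cell-like cluster had 1.76 and 1.45. The classes thus ran from a heavy chain excess in plasmacytoid dendritic and B cells to a light chain excess in nonclassical monocytes. The libraries differed beyond their intervals in classical monocyte-like cells, at 1.07 (1.02 to 1.13) and 0.866 (0.806 to 0.931), and in the Cd209a cluster. Ftl1 counts carry 2 uncertainties: reads can be divided between Ftl1 and its near copy Ftl1-ps1, which took 1.09% and 2.28% of the light chain UMIs of macrophage-like cells, and the gene overlaps a small RNA gene on its own strand.

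**Figure D3:**
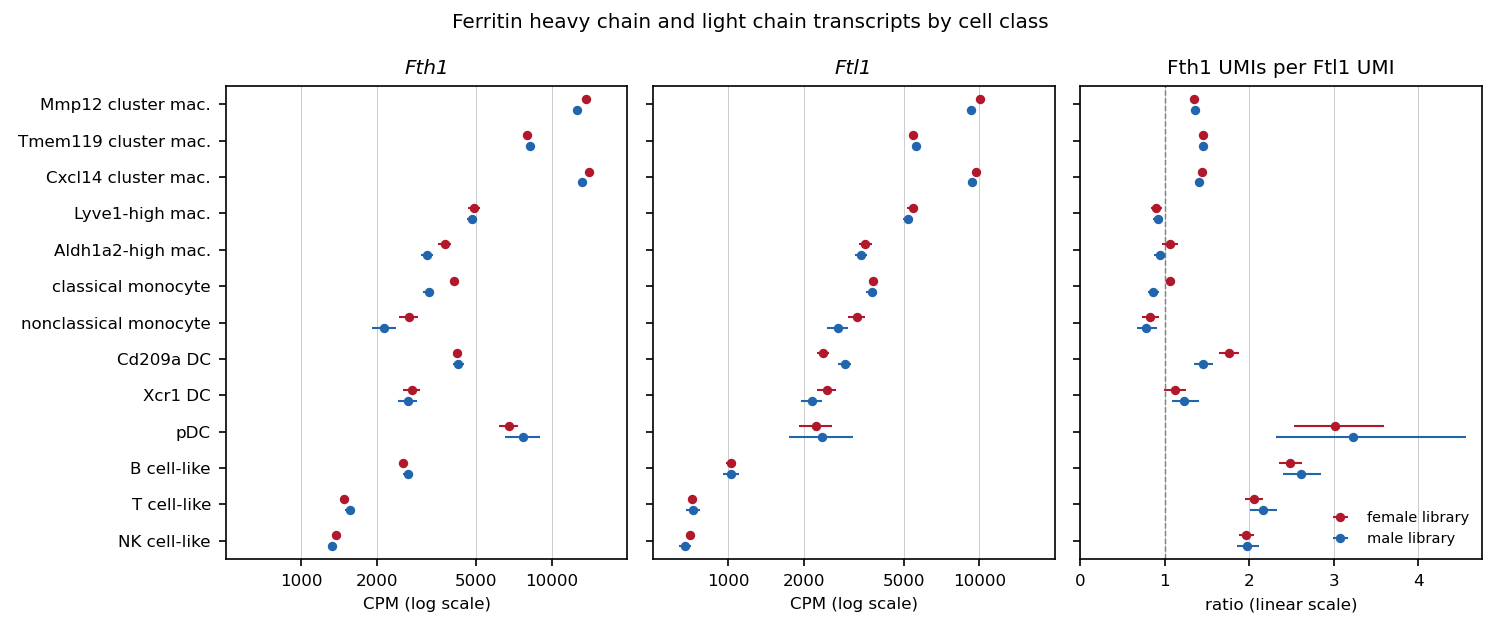
Fth1 and Ftl1 levels (CPM, log axis) and Fth1 UMIs per Ftl1 UMI (linear axis) in the cell classes of the female (red) and male (blue) library, with 95% intervals. The Mmp12 and Cxcl14 subsets hold the highest levels, from 12528 to 14055 CPM of Fth1, and the chain ratio runs from 0.785 in male nonclassical monocyte-like cells to 3.23 in male plasmacytoid dendritic cell-like cells.

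Ncoa4, the receptor that carries ferritin to the lysosome, was not highest in the subsets rich in ferritin. Lyve1-high cells had 120 and 165 CPM, 2.32-fold (1.52 to 3.42) and 2.88-fold (2.12 to 3.88) above the other macrophages. The other subsets lay between 44.1 and 66.4 CPM with overlapping intervals, and lymphocyte-like cells had 31.8 and 37.8 CPM. After thinning, a UMI was found in 11.5% and 11.9% of Lyve1-high cells, against 4.80% and 6.65% of the Mmp12, Tmem119 and Cxcl14 cells pooled (23.2% and 29.0% against 19.0% and 19.4% unthinned) and 2.71% and 3.66% of lymphocyte-like cells. Pcbp2 and Pcbp1, chaperones that load iron into ferritin, were highest, among macrophage subsets, in Aldh1a2-high cells, at 904 and 827 CPM and at 495 and 405 CPM, against 432 and 456 CPM and 308 and 320 CPM over macrophage-like cells.

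Among the macrophage subsets, export was highest in the Mmp12 subset. Slc40a1 was at 407 CPM (361 to 456) in the female and 480 CPM (425 to 541) in the male library, 3.71-fold (3.14 to 4.38) and 5.55-fold (4.62 to 6.67) above the other macrophages. Lyve1-high cells came next with 198 and 195 CPM, followed by Cxcl14 with 88.6 and 105 CPM, Tmem119 with 109 and 64.0 CPM and Aldh1a2-high with 84.8 and 14.6 CPM. Slc40a1 was the second leading gene of the Mmp12 cluster although kept out of the clustering, which makes its height there a description of the cluster.

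The signal in the Mmp12 subset was spread over many cells. Of these cells, 54.9% in the female and 68.0% in the male library had a UMI, or 32.7% (25.3 to 40.7) and 29.1% (20.6 to 38.9) after thinning, and the 5 highest cells held 19.7% and 27.3% of the UMIs. In Lyve1-high cells the female level rested on few cells, since 5 of them held 72.5% of the 51 UMIs, against 27.3% of 77 in the male library. In Aldh1a2-high cells 4 female cells held all 24 UMIs.

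Monocytes and dendritic cells had next to no exporter transcript. Slc40a1 was at 5.22 and 8.56 CPM in monocyte-like cells, 33.0-fold and 18.9-fold below macrophage-like cells, on 5 UMIs in each library. No UMI was seen in the 174 female and 122 male dendritic cell-like cells, where 3 UMIs would have been 3.74 and 5.18 CPM. Lymphocyte-like cells had 3.99 and 1.71 CPM, and 0.295% and 0.102% of thinned cells with a UMI (1.21% and 0.593% unthinned). That is 2.32% and 1.06% of the macrophage level, beside 0.734% (0.656 to 0.819) and 1.06% (0.924 to 1.22) for the macrophage gene C1qa in the same cells. Another macrophage gene, Csf1r, stood at 1.35% (1.09 to 1.65) and 1.36%. The female Slc40a1 interval (1.60 to 3.26) overlaps that of Csf1r. It lies above those of C1qa, C1qb (0.662 to 0.822), C1qc (0.658 to 0.855) and Apoe (0.905 to 0.980). The male Slc40a1 interval (0.423 to 2.19) overlaps those of all these genes. Whether Slc40a1 in lymphocyte-like cells exceeds carried-over transcripts was not tested.

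A second population rich in Slc40a1 was neutrophil-like. These cells, 47 female and 50 male, had 471 and 393 CPM, with a UMI in 35.0% (20.6 to 51.7) and 31.7% (18.1 to 48.1) of thinned cells (51.1% and 44.0% unthinned). This was 273% and 244% of the macrophage-like level, while in the same cells C1qa reached 2.13% and 2.29% and Csf1r 10.0% and 17.5% of theirs. Of the 10 macrophage markers, 8 were detected in each library, with a summed level of 410 and 607 CPM against 17848 and 17463 CPM in macrophage-like cells, and Mertk and Fcgr1 had 0 UMIs. Their part in the Slc40a1 level was not tested. Fth1 was also high there, at 5999 and 5395 CPM, whereas Hmox1 was 84.5 and 33.7 CPM. An unnamed cluster of low depth (median 798 and 682 UMIs) had 568 and 432 CPM of Slc40a1, and its intervals overlapped those of the Mmp12 subset in both libraries. All 10 macrophage markers were detected in it, with a summed level of 13317 and 13516 CPM, C1qa at 4018 and 4943 CPM, and Mertk at 279 and 245 CPM, more than in any named macrophage subset. Mmp12 was 557 and 618 CPM there. Endothelial-like cells had 101 and 119 CPM of Slc40a1.

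Other export genes were sparse. Ceruloplasmin (Cp), the ferroxidase that works with ferroportin, was 81.4 and 68.5 CPM in Lyve1-high cells (21 and 27 UMIs) and at most 16.9 CPM in the other subsets. Among macrophage subsets, the haem exporter Flvcr1 was highest in Aldh1a2-high cells at 127 and 65.9 CPM, the subset with the least Slc40a1 in the male library. Hfe, which takes part in iron sensing, was the pathway gene called higher in dendritic cell-like than in macrophage-like cells, at 152 and 176 CPM against 79.9 and 84.0 CPM, and it was 1.25 and 1.71 CPM in lymphocyte-like cells. Nfe2l2, which encodes NRF2, was 289 and 377 CPM in the Mmp12 and 85.3 and 66.0 CPM in the Lyve1-high subset.

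Set side by side, the subsets had different iron gene profiles. In the Mmp12 subset 4 of the 6 members with enough UMIs passed 1.5-fold against the other subsets, Slc40a1, Fth1, Ftl1 and Slc11a1, each higher, where 9.64% of all genes passed. In the Tmem119 subset 3 passed (Slc40a1, Hmox1 and Ncoa4, each lower), against 8.63% of all genes. In the Cxcl14 subset 4 passed (Fth1 and Ftl1 higher, Slc40a1 and Hmox1 lower), against 25.5%, and in Lyve1-high cells 4 passed (Hmox1 and Ncoa4 higher, Fth1 and Slc11a1 lower), against 22.6%. In Aldh1a2-high cells 4 passed (Slc40a1, Fth1, Ftl1 and Slc11a1, each lower), against 31.1%. Ferritin was high in the Mmp12 subset, where the exporter was high, and in the Cxcl14 subset, where the exporter was lower. Hmox1 was highest in a subset of middling exporter level.

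Over the 44 pathway genes, 29 had enough UMIs in each of these comparisons. In the Mmp12 subset 5 were higher, with Blvrb beside the members, and 3 lower (Cd163, Pcbp2 and Flvcr1). In Lyve1-high cells 5 were higher, with Cd163, Hmox2 and the mitochondrial iron importer Slc25a37 beside the members, and 3 lower. The Tmem119 subset had 0 higher and 4 lower, the Cxcl14 subset 3 and 5, and the Aldh1a2-high subset 4 and 9. Over all genes, 9.64% passed in the Mmp12, 8.63% in the Tmem119, 25.5% in the Cxcl14, 22.6% in the Lyve1-high and 31.1% in the Aldh1a2-high comparison. The Cxcl14 and Lyve1-high counts lay near these shares.

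Against monocyte-like cells, macrophage-like cells had more Slc40a1, Fth1 (2.57-fold and 3.00-fold) and Ftl1 (1.93-fold and 1.92-fold), 3 of 6 members tested, where 26.1% of genes passed. Dendritic cell-like cells had less of 5 of 6 members than macrophage-like cells, where 32.6% of genes passed: Slc40a1, Hmox1, Fth1, Ftl1 and Slc11a1. Ncoa4 was called in neither comparison.

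The genes whose profile lay closest to that of a member were found by Pearson correlation of log2(CPM + 10) over 34 points, 17 classes in each of 2 libraries, among 4768 genes. Points of a library share depth and free RNA, so the values are descriptions. Slc40a1 was nearest to the complement receptor C5ar1 (0.909), the tetraspanin Cd63 (0.890) and P2ry13 (0.885). Hmox1 was nearest to Csf1r (0.874), the receptor for the macrophage growth factor, Lyz2 (0.867), Adgre1 (0.856) and Slc11a1 (0.851). Tfrc was nearest to Cd209g (0.748), Fcna (0.719), Pcmt1 (0.711), Cd209f (0.706) and Folr2 (0.706), of which Fcna, Cd209f and Folr2 are markers that name the Lyve1-high subset.

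Detection of Hmox1 and Slc40a1 in the same cell was compared in thinned cells. In Mmp12 cells with a Hmox1 UMI after thinning, 4 of 15 in the female and 2 of 9 in the male library also had a Slc40a1 UMI, against 46 of 138 and 28 of 94 of the cells without Hmox1. In macrophage-like cells the share with Slc40a1 was 14.9% (8.20 to 24.2) and 16.5% (9.73 to 25.4) with Hmox1 and 12.9% (10.5 to 15.6) and 10.8% (8.56 to 13.5) without, and the intervals overlapped in each library, so that at this depth a difference was not detectable. The Cxcl14 subset of the male library was an exception, with Slc40a1 in 7 of 18 cells with Hmox1 (38.9%, 17.3 to 64.3) and 15 of 202 without (7.43%, 4.22 to 12.0), while the female library had 1 of 15 and 16 of 199. The pooled Mmp12, Tmem119 and Cxcl14 cells of the male library differed beyond their intervals, at 27.5% (14.6 to 43.9) with Hmox1 and 10.5% (7.91 to 13.6) without. That is not a separate result, since the same 7 Cxcl14 cells were among the 11 pooled cells with both genes. In the male Mmp12 and Tmem119 subsets, each on its own, the intervals overlapped. In the pooled cells of the female library the intervals overlapped, at 14.0% (5.82 to 26.7) and 14.4% (11.7 to 17.6).

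Between the sexes, macrophage-like cells were within 1.5-fold in most of the set. Of the 7 members, 1 passed 1.5-fold, where 6.65% of 6889 genes did. The Slc40a1 ratio was 1.07 (0.944 to 1.21) and became 1.89 with a mitochondrial ceiling of 1.2% on the scale used here, which leaves 327 female and 359 male barcodes over all cell types. The other ratios were 1.16 (1.02 to 1.32) for Hmox1, 1.10 (1.09 to 1.12) for Fth1, 1.07 (1.05 to 1.09) for Ftl1, 1.07 (0.960 to 1.19) for Slc11a1 and 0.80 (0.655 to 0.976) for Ncoa4. The member past the limit was Tfrc, at 11.5 CPM in the female and 22.3 CPM in the male library, a ratio of 0.518 (0.340 to 0.781).

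The subsets were not equally frequent in the libraries, which bears on these pooled values. Lyve1-high cells, which hold 16 of 39 female and 42 of 67 male Tfrc UMIs of the macrophage-like cells, were 12.1% (9.95 to 14.5) of female and 21.2% (18.4 to 24.2) of male macrophage-like cells, and Mmp12 cells 18.7% and 12.9%. Within Lyve1-high cells the Tfrc ratio was 0.582 (0.305 to 1.06), over the Mmp12, Tmem119 and Cxcl14 subsets together it was 0.855 (0.445 to 1.65), and with both libraries weighted to the same makeup it was 0.660. Of the 32 pathway genes with enough UMIs, 0 were higher in the female and 2 in the male library, Tfrc and Slc25a37 (15.1 and 24.6 CPM, ratio 0.614, 0.421 to 0.889), a share near the 6.65% of all genes.

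Within subsets, Slc40a1 was higher in the female library in Tmem119 cells, at 109 CPM (92.3 to 127) against 64.0 CPM (49.7 to 81.1). The ratio was 1.70 (1.27 to 2.29), and it remained 1.70 without the 5 highest cells of each library. The cells with a UMI were 21.1% and 15.7%, or 8.91% (5.74 to 13.1) and 4.93% (2.39 to 8.87) after thinning, with overlapping intervals. Split at the MHC class II boundary given below, the Tmem119 ratio was 1.85 (1.30 to 2.66) in the high cells. In the low cells it was 0.238 (0.133 to 0.455), on 76 UMIs in 119 female and 14 UMIs in 11 male cells. In the Mmp12 subset, with 289 female and 275 male Slc40a1 UMIs, the ratio was 0.847 (0.715 to 1.0), and in the Cxcl14 subset 0.845 (0.579 to 1.23). In Lyve1-high cells a ratio of 1.01 became 0.394 without the 5 highest cells, and in Aldh1a2-high cells the ratio of 5.79 rested on 24 and 6 UMIs.

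Hmox1 was higher in the female library in Mmp12 (1.84, 1.34 to 2.57), Tmem119 (1.78, 1.33 to 2.38) and Lyve1-high cells (1.54, 1.22 to 1.94), and about equal in Cxcl14 cells (1.05). Without the 5 highest cells of each library these became 1.63, 1.39, 0.796 and 1.01. The shares of thinned cells with a UMI were 9.80% and 8.74% in Mmp12, 7.75% and 6.40% in Tmem119 and 28.2% and 28.1% in Lyve1-high cells. The Lyve1-high ratio was thus carried by the highest cells, whereas that of the Mmp12 subset was still past 1.5-fold without them. In Aldh1a2-high cells the ratio was 0.777 and became 1.13.

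In monocytes a few cells weighed heavily on the Hmox1 ratio. Classical monocyte-like cells had 189 CPM of Hmox1 in the female and 73.9 CPM in the male library (ratio 2.56, 1.73 to 3.87, and 1.58 without the 5 highest cells). Nonclassical monocyte-like cells had 157 and 865 CPM (ratio 0.181, 0.118 to 0.271). There 1 male cell held 64 of 131 UMIs and 5 cells held 88.5%, and without the 5 highest the ratio was 0.669. After thinning, 15.3% of 72 female and 15.6% of 64 male nonclassical cells had a Hmox1 UMI. Unthinned, 18 of 103 female and 17 of 74 male cells had one.

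**Figure D4:**
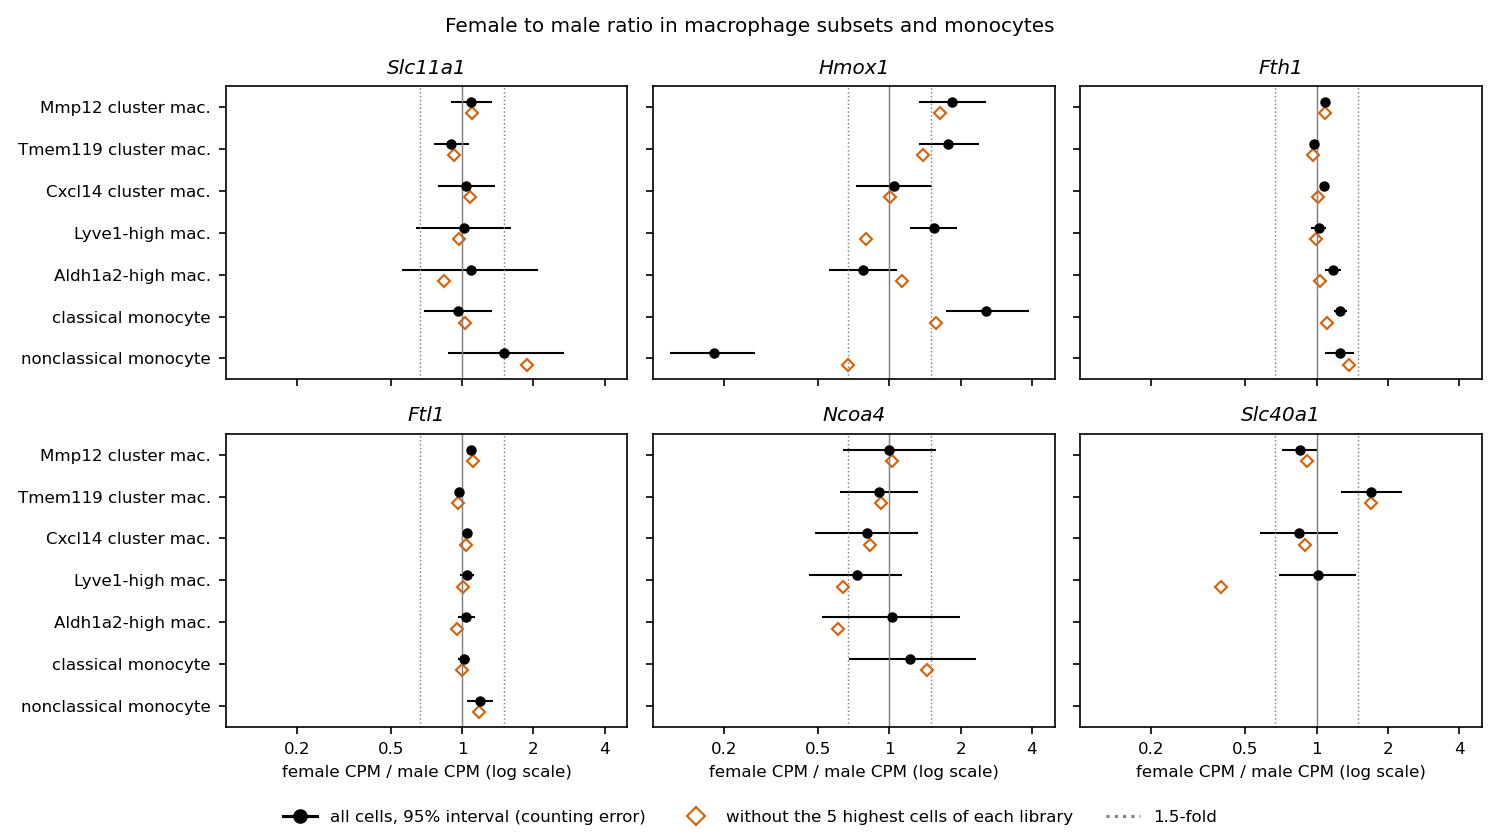
Female to male ratio (log axis) of 6 iron genes in 7 macrophage and monocyte classes, shown where both libraries had at least 10 UMIs. Black points carry 95% intervals, orange diamonds leave out the 5 highest cells of each library, and dotted lines mark 1.5-fold. Fth1 and Ftl1 lie within the lines, and the Hmox1 ratios come nearer to 1 in all 7 classes when the highest cells are left out.

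In each class the number of members past 1.5-fold between the sexes stood beside a share of all genes. Among members with enough UMIs it was 1 of 5 in Mmp12 (6.68% of all genes), 2 of 6 in Tmem119 (11.9%), 0 of 5 in Cxcl14 (8.18%), 1 of 6 in Lyve1-high (13.2%) and 0 of 3 in Aldh1a2-high cells (6.62%). It was 1 of 4 in classical (7.92%) and 1 of 3 in nonclassical monocyte-like cells (7.06%). The dendritic cell-like and B cell-like classes had 0 of 2 each (9.92% and 7.85%) and the T cell-like class 0 of 3 (5.25%). In NK cell-like cells 1 of 4 passed (4.77%), Tfrc at 16.9 and 10.8 CPM, with an interval of 0.952 to 2.70 about a ratio of 1.57.

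The ferritin chains stayed within 1.5-fold between the libraries in each subset. Fth1 ratios in the 5 subsets ran from 0.971 (Tmem119) to 1.17 (Aldh1a2-high) and Ftl1 ratios from 0.972 to 1.09, and in lymphocyte-like cells they were 1.0 and 1.03. In monocyte-like cells Fth1 was 1.28-fold (1.21 to 1.36) higher in the female library, still within 1.5-fold. The copy Ftl1-ps1, which holds few of the UMIs, was lower in the female library in macrophage-like cells (78.4 and 155 CPM, ratio 0.505, 0.433 to 0.589).

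The study separates macrophages low in MHC class II from those high in it, and the boundary used here was 9 UMIs of these genes per 1000. Only cells with at least 1000 UMIs could be placed. Among the Mmp12, Tmem119 and Cxcl14 cells, 163 of 625 female and 17 of 526 male cells lay below it. In the Lyve1-high subset 18 of 78 female and 33 of 135 male cells did. Over those 3 subsets pooled, Slc40a1 in the female low cells was 0.600 (0.472 to 0.755) of its level in the high cells, Fth1 0.790 and Ftl1 0.748, but the groups differ in subset: 119 of the 163 low cells were Tmem119 cells and 9 were Mmp12 cells, against 139 and 144 of the 462 high cells. Within the female Tmem119 subset the ratios were 1.30 (0.944 to 1.80) for Slc40a1, 1.19 (0.871 to 1.63) for Hmox1, 0.914 (0.880 to 0.949) for Fth1 and 0.935 (0.893 to 0.978) for Ftl1. In the female Cxcl14 and Mmp12 subsets Slc40a1 was 0.183 (0.0216 to 0.693) on 2 low-cell UMIs and 0.710 (0.362 to 1.26), and Fth1 1.02 (0.964 to 1.08) and 1.29 (1.19 to 1.39). Hmox1 was 1.35 (0.694 to 2.48) and 4.80 (3.06 to 7.32), the latter on 29 UMIs in 9 low cells. The subsets thus lay on both sides of 1 for Slc40a1 and Fth1. In the male library the pooled Slc40a1 ratio went the other way, at 2.82 (1.91 to 4.03), on 33 UMIs in 17 low cells of which 3 Mmp12 cells held 19. Within the male Tmem119 subset it was 10.2 (5.22 to 18.6), on 14 UMIs in 11 low cells. Those 3 Mmp12 cells also held 820 of 1112 Fth1 UMIs of the male low cells, and no ratio is given for Fth1.

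In Lyve1-high cells, the low cells had more Slc40a1 than the high cells in both libraries, 10.3-fold (4.87 to 24.5) in the female and 4.12-fold (2.51 to 6.81) in the male library, and more Hmox1, 5.43-fold (3.81 to 7.84) and 2.13-fold (1.47 to 3.06). The female values rest on few cells, since 5 cells hold 72.5% of the Slc40a1 and 60.5% of the Hmox1 UMIs of that class. Fth1 was 1.12 (0.983 to 1.27) and 1.02 (0.915 to 1.15), with intervals that include 1.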

How the data were processed

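CD45+ live (DAPI-negative) cells of mouse adrenal glands were captured with 10x Genomics 3′ chemistry. The deposited values are whole UMI counts per gene and barcode, made by the authors with Cell Ranger on mm10, and no column of another series was used. Barcodes with under 200 genes or over 15% mitochondrial UMIs were left out, as were 123 female and 53 male barcodes with the highest doublet scores, since the automatic doublet threshold (scanpy 1.11.5, Scrublet) marked 1 and 8. The study states a mitochondrial ceiling of 1.2%, which on the scale used here leaves 327 of 3963 female and 359 of 2685 male barcodes. By its own cell counts the study kept most barcodes of both libraries, so that the ceiling it applied was not on this scale, which could not be settled. Clustering ran in R 4.3.3, with counts transformed by sctransform 0.4.2 and both libraries integrated by Seurat 5.3.0 (2000 features without 62 held out iron, MHC class II and sex-linked genes, 20 components, resolution 1), followed by summing in Python 3.11.15 (numpy 2.4.6, scipy 1.17.1, pandas 2.3.3). The members, gene lists, cluster naming and scoring were chosen with earlier results of these data known. Named pathway genes were, for each role, the 3 others with the highest CPM in macrophage-like cells and any past 1.5-fold between the sexes there, and genes named in a count of calls, in the high-Hmox1 cells and Ftl1-ps1 were chosen after their values were seen. Ratios carry exact binomial 95% intervals and no p-value, since each sex had 1 library, and the ratio script was tested on simulated data. Alternatives changed the filters, the scaling, the gate, the resolution, the thinning depth (500 UMIs) and the highest cells. Sequences were read from the GENCODE M21 annotation on GRCm38.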

Additional observations from a re-analysis of the deposited data

Results flagged for a closer look

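The female to male ratio of Hmox1 went in opposite directions in the monocyte classes, at 2.56 in classical and 0.181 in nonclassical monocyte-like cells. It was 1.84 in the Mmp12 subset, 1.78 in the Tmem119 subset and 1.54 in Lyve1-high cells. With 1 library per sex, the difference between classes was not tested. Without the 5 highest cells of each library, the ratios were 1.58 in classical and 0.669 in nonclassical monocyte-like cells.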

How the results depend on the processing

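Of the recomputed sex ratios, 377 stayed within the interval of the reported ratio, 82 moved out of it and 4 ratios past 1.5-fold changed direction. Of the recomputed levels, 154 stayed within their interval and 144 moved, most of them with ribosomal protein and mitochondrial genes left out of the total, which raises CPM by construction. Of the shares of cells with a UMI, 47 stayed and 181 moved, as a share rises with the thinning depth. In macrophage-like cells the Hmox1 ratio of 1.16 became 1.35 with a mitochondrial ceiling of 5%, 0.973 with 1.2%, 1.01 as a mean over cells, 1.01 without the 5 highest cells of each library and 1.39 with the same subset makeup. The Slc40a1 ratio became 1.89 at 1.2%. The Fth1 ratio became 1.07 at 5%, 1.03 at 1.2%, 1.12 without ribosomal protein and mitochondrial genes, 1.13 with a per-cell gate, 1.04 with the same makeup and 1.06 without Aldh1a2-high cells. The Ftl1 ratio became 1.04 at 5% and at 1.2%, 1.09 without ribosomal protein and mitochondrial genes, 1.11 as a mean over cells, 1.03 with the same makeup and 1.04 without Aldh1a2-high cells. Leaving out Aldh1a2-high cells and adding the low-depth cluster were chosen after seeing the data.

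The reversed values were Hmox1 in Lyve1-high cells, 0.796 without the 5 highest cells, in nonclassical monocyte-like cells, 4.95 at 1.2%, and in monocyte-like cells (0.654), 2.82 at 1.2% and 1.01 without the 5 highest cells. The 1.2% ceiling, not the filter as the study applied it, keeps few cells, and for the other moves the cause was not tested. The share of all genes past 1.5-fold in macrophage-like cells rose from 6.65% to 11.3% with at least 20 UMIs and 36.9% with at least 1 UMI. Of the 5 genes nearest to Slc40a1, Hmox1 and Tfrc, 4, 4 and 1 were shared with log2(CPM + 1) and 2, 2 and 4 with log2(CPM + 50).

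No paired analysis was possible because there was 1 library per sex. Depth limits Tfrc and Ncoa4 most, and animals cannot be separated within a library.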
